A study of Mus musculus with 30 samples.

Results

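The matrix metalloproteinases described here are the 9 genes Mmp2, Mmp3, Mmp7, Mmp10, Mmp11, Mmp12, Mmp13, Mmp14 and Mmp19. They were taken by name from the gene tables of both tissues, where all 9 had a row, out of 19468 rows in the kidney table and 19685 in the pancreas table. C57BL/6 mice had received 0.2 mg/ml doxycycline for 7 days, and poly(A) RNA of their kidneys and pancreases had been sequenced, with 5 libraries in each of 6 groups. Kidneys came from i4F mice, which carry a doxycycline-inducible cassette for Klf4, Myc, Sox2 and Oct4 (encoded by Pou5f1), the factors that reprogram cells to pluripotency, from i4F mice that also lacked Ink4a/Arf (i4F Ink4a/Arf KO), and from i4F mice that also lacked p53 (i4F p53 KO). Pancreases came from i4F, from i4F Ink4a/Arf KO and from mice labelled p53 KO, a label that does not name i4F. The submitters' design names 5 mice of each genotype, and the labels do not say which kidney and pancreas came from the same mouse. Every group received doxycycline, so no untreated control enters. Levels are FPKM, mapped fragments scaled to transcript length and library size, so they are per length and can be set side by side between genes.

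Matrix metalloproteinases are zinc-dependent enzymes that cut collagens, elastin, laminins and other proteins around cells. Most are secreted as inactive precursors, are activated by plasmin, by proprotein convertases or by one another, and are held in check by the tissue inhibitors Timp1 to Timp4. Mmp14 sits in the membrane, cuts fibrillar collagen and activates the gelatinase Mmp2 at the surface of stromal cells. In the pancreas, Mmp7 (matrilysin) is known from ducts and from acinar cells that turn duct-like, and in the kidney it is known from injured tubules. Mmp12 is the elastase of macrophages, Mmp13 is the main interstitial collagenase of the mouse, and Mmp3 and Mmp10 are the stromelysins.

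By GENCODE M21 on GRCm38, the assembly also called mm10, 5 of the 9 genes lie in 1 cluster on chromosome 9, all on the forward strand. Mmp13 spans 7272514 to 7283331, Mmp12 7344381 to 7369499, Mmp3 7445822 to 7455975, Mmp10 7502352 to 7510240 and Mmp7 7692090 to 7699585. The neutrophil collagenase gene Mmp8, which is no member, lies between Mmp10 and Mmp7. Of the others, Mmp2 lies on chromosome 8 (92827291 to 92853420), Mmp14 on chromosome 14 (54431612 to 54445364), and Mmp11 and Mmp19 on chromosome 10 (75923222 to 75936496 on the reverse strand, and 128790910 to 128800824). Promoter windows of 300 bases, 250 before and 50 after a RefSeq start, were matched for 7 of the 9 (build GRCm38.p6). Mmp2 and Mmp19 were not matched. The letters TGANTCA, the form of the site that AP-1 factors (Fos and Jun proteins) bind, were searched in these windows. The motif is its own reverse complement, so 1 search covers both strands. It occurs in a window of each of the 5 cluster genes and in no window of Mmp11 or Mmp14, against 7.81% of 32851 windows of the same length over all genes. A match is a description of the letters, not evidence that a factor binds. The 100 bases before the start are shown for the cluster genes, whose matches lie 35 to 63 bases before it, with the match in capitals, and for Mmp14 as a member without one:
Mmp13, chr9:7272414-7272513: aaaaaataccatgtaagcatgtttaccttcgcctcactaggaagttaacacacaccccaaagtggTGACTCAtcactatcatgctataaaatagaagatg
Mmp12, chr9:7347274-7347373: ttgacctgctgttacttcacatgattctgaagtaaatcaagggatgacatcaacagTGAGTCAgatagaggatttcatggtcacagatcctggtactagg
Mmp3, chr9:7445722-7445821: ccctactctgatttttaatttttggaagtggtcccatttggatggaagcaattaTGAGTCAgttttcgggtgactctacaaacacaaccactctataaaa
Mmp10, chr9:7502242-7502341: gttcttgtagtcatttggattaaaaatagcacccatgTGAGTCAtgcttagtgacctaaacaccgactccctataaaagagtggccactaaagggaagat
Mmp7, chr9:7691990-7692089: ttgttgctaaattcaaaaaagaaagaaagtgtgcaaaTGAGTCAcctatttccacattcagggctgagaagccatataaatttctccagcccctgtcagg
Mmp14, chr14:54431498-54431597: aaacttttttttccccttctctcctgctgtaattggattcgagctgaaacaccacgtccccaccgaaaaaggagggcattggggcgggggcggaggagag
Mmp12 and Mmp7 each have 1 more RefSeq start, whose windows hold no match.

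The libraries match their tissues. Kidney libraries held 2384 to 5245 summed FPKM of 9 tubule markers and pancreas libraries 8.02 to 27.5. In the kidney Trp53 was lower in i4F p53 KO than in i4F (4.90 to 10.1 against 14.8 to 20.3 FPKM, log2 difference -1.14, adjusted p = 0.00547). The pancreas libraries with the p53 KO label showed no such decrease as deposited (6.65 to 24.8 against 1.64 to 6.99 FPKM). Scaled as described below, their Trp53 overlapped that of i4F (4.17 to 6.66 against 3.55 to 6.96). Ccng1, a p53 target gene, was called lower there when scaled (3.90 to 5.73 against 9.35 to 16.8). As deposited Ccng1 was not called (6.88 to 21.3 against 4.45 to 13.3 FPKM). Loss of p53 in these libraries was not tested, so in the pancreas the words p53 KO stand for that label only. Pou5f1 read 80.3, 98.2, 40.7, 24.6 and 40.9 FPKM in these libraries, against 0 to 1.14 in i4F and 0.0456 to 1.91 in i4F Ink4a/Arf KO. They stand apart from the other pancreases. Digestive enzyme genes of acinar cells (14 listed) took 6.25, 13.7, 24.7, 38.0 and 0.924% of the summed FPKM in their replicates 1 to 5, against 43.7 to 59.4% in i4F and 48.2 to 59.0% in i4F Ink4a/Arf KO, where 2 of them, Ctrb1 and Cela2a, were listed at 0 in all 10 libraries. Those 0 values may be failed estimates, which was not tested. Acinar genes also took 0.354 to 0.522% in kidneys i4F p53 KO replicates 2, 3 and 4 and i4F replicate 5, and at most 0.0814% in the other 11. FPKM are relative to the library, so where a few abundant genes take less, other genes read higher: the median of the 10781 pancreas genes tested differed by 1.58 on the log2 scale between p53 KO and i4F. Pancreas values are therefore given as deposited and after scaling each library to its median gene (median difference 0.03), called scaled. The kidney median differed by 0.03, and scaling changed no call of a member there.

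In the pancreas Mmp14 and Mmp2, the membrane enzyme and the gelatinase it activates, reached the highest levels of the members and rose strongly in the libraries labelled p53 KO. Mmp14 measured 147, 149, 46.4, 13.1 and 272 FPKM in p53 KO replicates 1 to 5, 1.74, 1.42, 3.02, 6.56 and 3.56 in i4F and 1.52, 2.22, 1.63, 2.86 and 2.21 in i4F Ink4a/Arf KO. All 5 values labelled p53 KO lay above all 10 others, and replicate 4, at 13.1, came nearest to them. The means were 126 ± 102 and 3.26 ± 2.04 FPKM in p53 KO and i4F (SD, n = 5), a 38.5-fold ratio. By limma on log2(FPKM + 1) the difference from i4F was 4.41 (SE 0.57, adjusted p = 2.58e-06), and 2.58 (SE 0.38, adjusted p = 3.64e-05) when scaled. Mmp2 measured 139, 122, 30.3, 12.1 and 203 FPKM in the p53 KO libraries, 1.96, 1.77, 4.70, 5.41 and 4.06 in i4F and 1.70, 1.65, 1.68, 3.05 and 2.78 in i4F Ink4a/Arf KO, again without overlap. Its difference from i4F was 3.97 (SE 0.56, adjusted p = 5.34e-06), scaled 2.12 (SE 0.37, adjusted p = 0.000178). Both genes kept to a narrow ratio: Mmp2 per Mmp14 was 0.654 to 0.947 within p53 KO libraries, 0.826 to 1.56 in i4F and 0.742 to 1.26 in i4F Ink4a/Arf KO, although each gene differed from 12.1 to 203 FPKM (Mmp2) and from 13.1 to 272 (Mmp14) among the p53 KO libraries. Such a ratio within a library does not depend on scaling. Read against all genes, 91.2% of all genes tested were called higher as deposited and 34.9% when scaled, and 50.9% of 19679 genes above 0 had all p53 KO values above all i4F values.

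**Figure D1:**
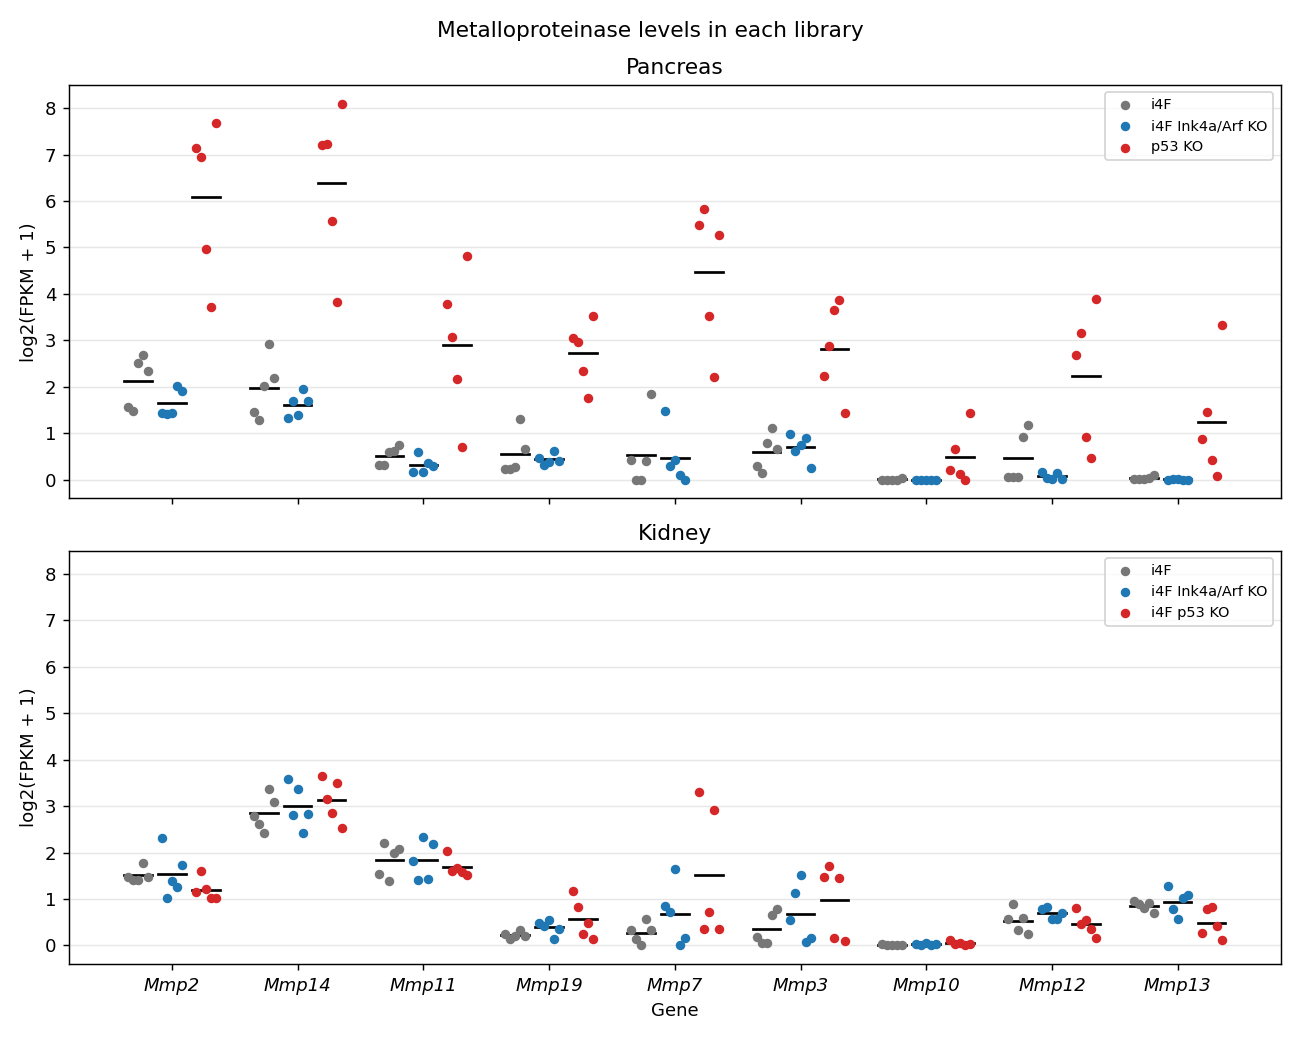
Level of each metalloproteinase, as log2(FPKM + 1) on the vertical axis, in the 15 pancreas libraries (upper panel) and the 15 kidney libraries (lower panel); each point is 1 library, colours are the 3 genotypes and black lines are group means. The pancreases labelled p53 KO lie above the other pancreases for Mmp2, Mmp14, Mmp7, Mmp3 and Mmp19, while the kidney groups overlap for every gene.

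Mmp11 (stromelysin 3, known from fibroblasts next to epithelium) and Mmp19 (an enzyme that cuts basement membrane proteins) were near 0 in most pancreases. Mmp11 measured 12.7, 7.36, 3.49, 0.638 and 27.3 FPKM in p53 KO, 0.239 to 0.675 in i4F and 0.116 to 0.504 in i4F Ink4a/Arf KO. Replicates 1, 2, 3 and 5 stood above every i4F value, and replicate 4 lay within the i4F range. Mmp11 reached 1 FPKM in 4 libraries and was not among the genes tested. An exact permutation test over the 5 and 5 libraries, two-sided, of log2(FPKM + 1) gave p = 0.0159 against i4F as deposited and p = 0.0476 scaled, where 0.00794 is the smallest that 252 splits allow. Mmp19 measured 7.34, 6.75, 4.07, 2.40 and 10.5 FPKM in the p53 KO libraries, 0.180, 0.181, 0.217, 1.47 and 0.592 in i4F and 0.247 to 0.527 in i4F Ink4a/Arf KO, with no overlap. Its difference from i4F was 2.18 (SE 0.28, adjusted p = 2.60e-06), scaled 0.93 (SE 0.15, adjusted p = 9.31e-05). After scaling, Mmp19 ranged over 1.84 to 2.80 against 0.330 to 1.47 in i4F.

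Mmp7 measured 43.4, 55.7, 10.5, 3.65 and 37.8 FPKM in the p53 KO libraries, 0.350, 0, 0, 0.328 and 2.61 in i4F and 1.79, 0.232, 0.338, 0.0668 and 0 in i4F Ink4a/Arf KO. All p53 KO values lay above all others, though i4F replicate 5 and i4F Ink4a/Arf KO replicate 1 stood well above the rest of their groups. The means were 30.2 ± 22.2 and 0.658 ± 1.11 FPKM in p53 KO and i4F (SD, n = 5). The difference was 3.92 (SE 0.57, adjusted p = 6.88e-06), scaled 2.48 (SE 0.48, adjusted p = 0.000367). Scaled, p53 KO replicate 4 at 2.79 lay below i4F replicate 5 at 3.29.

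Mmp3 rose as well, but in another pattern. It measured 3.67, 6.31, 11.6, 13.7 and 1.72 FPKM in p53 KO replicates 1 to 5, 0.219, 0.108, 0.725, 1.15 and 0.588 in i4F and 0.965, 0.545, 0.677, 0.852 and 0.192 in i4F Ink4a/Arf KO. Every p53 KO value lay above every other, and the highest were those of replicates 3 and 4, where Mmp2 and Mmp14 were lowest. The difference from i4F was 2.22 (SE 0.37, adjusted p = 2.25e-05). Scaled values overlapped (0.461 to 10.5 in p53 KO, 0.233 to 1.15 in i4F), and the scaled difference of 1.09 (SE 0.44, adjusted p = 0.0394) was close to the threshold. Fitted over all genes without a filter on low values, the scaled adjusted p was 0.0675, and the exact permutation test of the scaled values gave p = 0.103. Against i4F Ink4a/Arf KO the scaled difference of 0.84 did not pass (adjusted p = 0.0996). Mmp3, Mmp7 and Mmp19 reached 1 FPKM in 1 or 2 of the 10 other pancreases, so they passed the filter through p53 KO, the group where they are high; Mmp2 and Mmp14 reached it in all 15.

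The stromelysin Mmp10, the macrophage elastase Mmp12 and the collagenase Mmp13 were below the filter. Mmp12 measured 5.41, 7.91, 0.894, 0.386 and 13.8 FPKM in the p53 KO libraries, 0.0442, 0.0447, 0.0480, 0.894 and 1.26 in i4F and 0.0109 to 0.123 in i4F Ink4a/Arf KO. Replicates 1, 2 and 5 were above every i4F value, and replicates 3 and 4 were not. Mmp13 measured 0.827, 1.74, 0.338, 0.0536 and 9.12 FPKM in p53 KO, 0.0142 to 0.0673 in i4F and 0 to 0.0152 in i4F Ink4a/Arf KO, highest by far in replicate 5. Mmp10 was listed at 0 in 9 of the 10 other pancreases and measured 0.152, 0.589, 0.0823, 0 and 1.72 FPKM in p53 KO. Exact permutation tests against i4F gave p = 0.0397 for Mmp12, 0.0159 for Mmp13 and 0.0476 for Mmp10 as deposited, and 0.159, 0.0159 and 0.0476 scaled. Without the filter limma called all 9 members higher as deposited, and Mmp2, Mmp7, Mmp11, Mmp14 and Mmp19 when scaled, against 73.6% and 26.7% of all 19679 genes in those fits (Mmp12 0.69, adjusted p = 0.115; Mmp13 0.53, adjusted p = 0.0866; Mmp10 0.17, adjusted p = 0.0934).

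**Figure D2:**
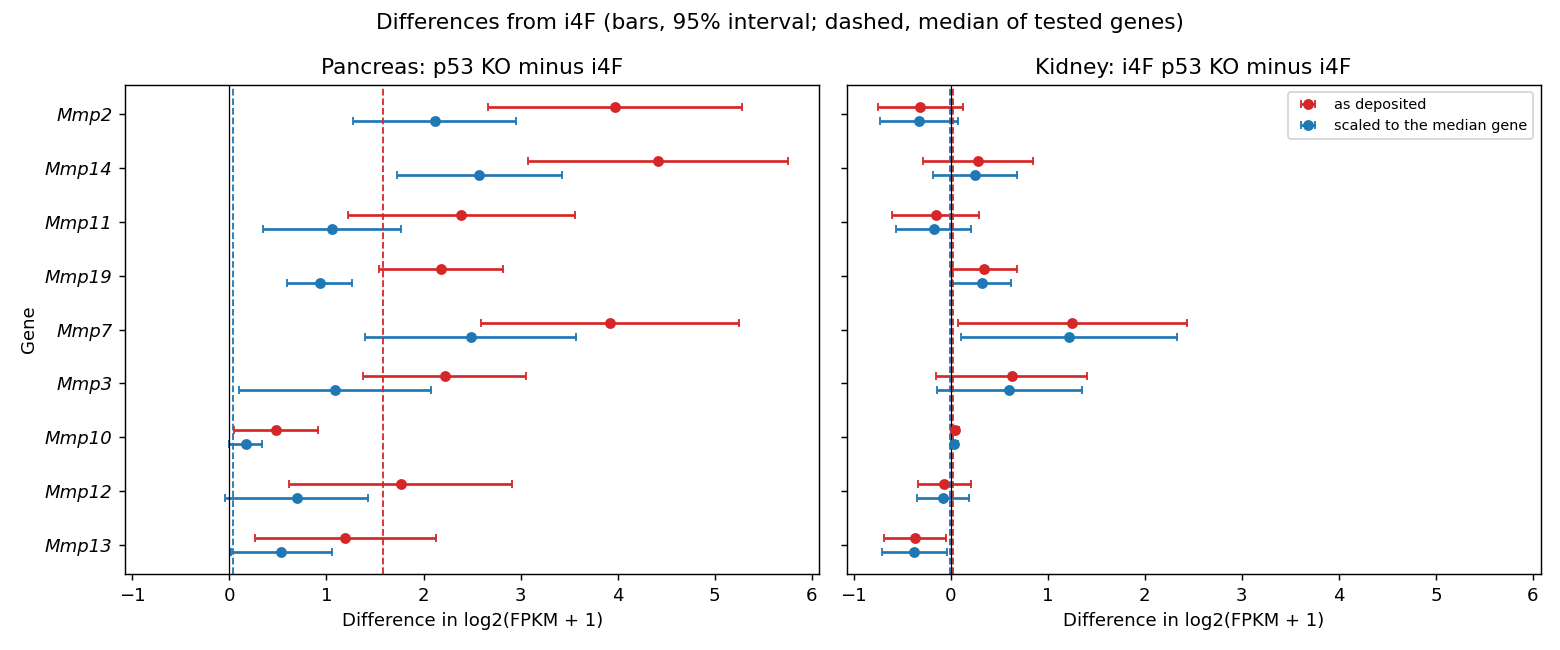
Difference from i4F in log2(FPKM + 1) for p53 KO pancreas (left) and i4F p53 KO kidney (right), as deposited (red) and scaled to the median gene (blue), from limma over all genes without a filter; bars are 95% intervals and dashed lines the median difference of the genes that pass the filter. In the pancreas Mmp2, Mmp14 and Mmp7 lie between 3.92 and 4.41 as deposited and between 2.12 and 2.58 scaled, to the right of the dashed lines; in the kidney the differences lie between -0.37 and 1.25.

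Set in order of mean level (SD, n = 5), the p53 KO pancreases held 126 ± 102 FPKM of Mmp14, 101 ± 79.5 of Mmp2, 30.2 ± 22.2 of Mmp7, 10.3 ± 10.5 of Mmp11, 7.41 ± 5.13 of Mmp3, 6.20 ± 3.11 of Mmp19, 5.68 ± 5.52 of Mmp12, 2.42 ± 3.80 of Mmp13 and 0.509 ± 0.716 of Mmp10. The mean ± SD ranges of neighbours overlapped, but the members were measured in the same libraries. In all 5, Mmp14 read above Mmp2, Mmp2 above Mmp7, Mmp7 above Mmp11, Mmp12 above Mmp13 and Mmp13 above Mmp10. The order of Mmp11, Mmp3, Mmp19 and Mmp12 changed between libraries, so none is read for them. In i4F, Mmp2 (3.58 ± 1.64) and Mmp14 (3.26 ± 2.04) led, and all others averaged under 1 FPKM. In i4F Ink4a/Arf KO the same 2 led at 2.17 ± 0.684 and 2.09 ± 0.541, and Mmp10 was at 0 in all 5.

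Against i4F Ink4a/Arf KO the p53 KO pancreases were higher in all 5 members tested as deposited, and in 4, without Mmp3, when scaled. Mmp14 differed by 4.77 (scaled 2.84, adjusted p = 1.57e-05), Mmp2 by 4.45 (scaled 2.51, adjusted p = 4.00e-05), Mmp7 by 4.01 (scaled 2.51, adjusted p = 0.000315) and Mmp19 by 2.29 (scaled 0.95, adjusted p = 7.42e-05). All p53 KO values lay above all i4F Ink4a/Arf KO values for 8 members, Mmp10 being the exception, against 62.3% of all genes above 0. Of the genes tested, 91.7% were called higher as deposited and 34.7% scaled. This comparison shares the p53 KO libraries with the one before, so it is no independent repeat. Between i4F Ink4a/Arf KO and i4F none of the 5 tested members was called and 0% of all genes was called by limma, with 36 of 10781 genes at an unadjusted p under 0.05. For Mmp14 that difference was -0.36 with a 95% interval of -1.57 to 0.85, for Mmp2 -0.47 (-1.65 to 0.71), for Mmp3 0.10 (-0.67 to 0.87), for Mmp7 -0.08 (-1.28 to 1.12) and for Mmp19 -0.11 (-0.71 to 0.49).

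Genes around the metalloproteinases were higher in the same pancreases. These lists were drawn up with earlier results of these data known, and their counts are to be read against the 91.2% of all genes called higher as deposited and 34.9% scaled. Some of these genes, like Mmp3, Mmp7 and Mmp19, passed the filter only with the p53 KO libraries, since they reached 1 FPKM in fewer than 5 of the other 10 pancreases: 2 of the 5 tested inhibitors, 3 of 10 activators, 4 of 11 factors, 4 of 9 inducers, 3 of 15 substrates, 9 of 16 other proteases and 2 of 3 other metalloproteinases, against 28.3% of all genes tested. Such genes had to read higher there, so the list counts support nothing by themselves. Of the 7 listed inhibitors 5 were tested and 5 rose against i4F as deposited, 4 scaled. Timp1, an inhibitor of most secreted metalloproteinases, measured 294, 361, 335, 144 and 828 FPKM in the p53 KO libraries, 0.162, 0.483, 0.778, 1.47 and 2.09 in i4F and 0.256, 0.745, 2.01, 0.992 and 0.839 in i4F Ink4a/Arf KO. It differed from i4F by 7.48 (SE 0.38, adjusted p = 3.58e-10), scaled 5.84 (SE 0.33, adjusted p = 1.12e-08). Timp3 differed by 1.44 scaled (adjusted p = 0.0064). Timp2, which is needed for Mmp14 to activate Mmp2, differed by 2.07 as deposited but by 0.13 scaled (adjusted p = 0.671), and Timp4 was not tested. Per unit of Mmp14, Timp1 was 2.00, 2.42, 7.22, 11.0 and 3.04 in p53 KO replicates 1 to 5, above the 0.0929 to 0.588 of i4F and the 0.169 to 1.23 of i4F Ink4a/Arf KO in every library. Its highest ratios were in replicates 3 and 4.

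**Figure D3:**
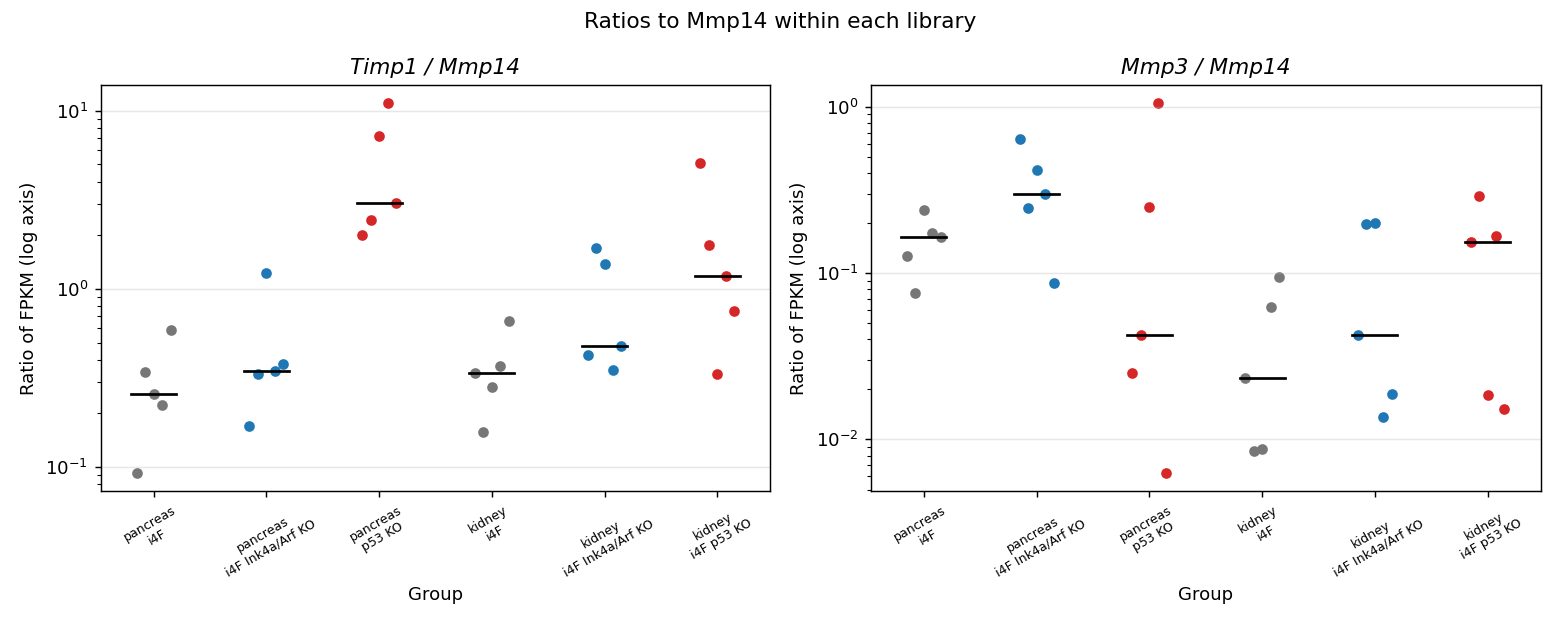
Ratio of Timp1 to Mmp14 (left) and of Mmp3 to Mmp14 (right) in FPKM within each library, on log axes, by tissue and genotype; points are libraries and black lines medians of 5. Timp1 per Mmp14 is 2.00 to 11.0 in pancreases labelled p53 KO and 0.0929 to 1.23 in the other pancreases, whereas Mmp3 per Mmp14 runs from 0.00630 to 1.05 within the p53 KO libraries alone.

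Among 12 listed activators and receptors 10 were tested, 9 rose as deposited, and 6 rose and 2 fell scaled, where 31.2% of all genes fell. Plaur, the receptor that holds urokinase at the cell surface, measured 143, 148, 76.8, 24.8 and 176 FPKM in p53 KO and 0.107 to 1.84 in i4F and differed by 4.27 (SE 0.26, adjusted p = 1.61e-08) scaled. Urokinase itself, Plau, differed by 1.94 (SE 0.24, adjusted p = 1.57e-06) as deposited and 0.18 scaled (adjusted p = 0.524). St14 and Cd44 also rose when scaled (1.75 and 3.12), and Bsg and Hpn fell (-0.96 and -2.02). Of 13 AP-1, Ets and Runx factors 11 were tested, 11 rose as deposited and 7 scaled, with the smallest p-values for Fosl1 (0.98 scaled), Junb (3.01) and Etv4 (1.39). Fosl1, a Fos family member that reached 1 FPKM in p53 KO libraries only, was listed at 0 in all 5 i4F pancreases and measured 3.52, 2.59, 2.68, 1.33 and 3.37 FPKM in p53 KO. Of 12 listed cytokines and receptors known to induce metalloproteinases 9 were tested, 9 rose as deposited and 8 scaled, with the smallest p-values for Il6 (1.16 scaled), Il1b (1.46) and Tgfbr2 (1.73). Of 15 matrix proteins that metalloproteinases cut, 15 rose as deposited and 14 scaled, among them Vcan (2.02 scaled) and Col1a1 (4.31). Of 18 other matrix proteases 16 were tested, 16 rose as deposited and 14 scaled, with the smallest p-values for Adam9 (1.59 scaled), Adam15 (1.20) and Adamts15 (1.13). Of the 14 remaining metalloproteinase genes 3 were tested: Mmp23 and Mmp9 rose on both scales (1.21 and 1.06 scaled), and Mmp15 rose as deposited (1.19) and fell scaled (-0.55).

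Markers of the cell types known to make these enzymes were mostly higher in the same pancreases, by less when scaled. Their counts, too, are to be read against 91.2% of all genes called higher as deposited and 34.9% scaled. Passing the filter only with the p53 KO libraries were 3 of the 5 tested neutrophil markers and 1 of 9 macrophage markers. It was 0 of the fibroblast and duct markers, against 28.3% of all genes tested. Such genes had to read higher there. In bulk tissue, more cells of a type and more RNA per cell cannot be told apart. All 9 tested macrophage markers rose as deposited and scaled, and their summed level was 567 to 2985 FPKM in p53 KO, 40.2 to 422 in i4F and 76.3 to 153 in i4F Ink4a/Arf KO. Scaled, these sums were 434 to 850, 84.4 to 421 and 133 to 239. Of 10 fibroblast markers, which share 3 genes with the substrate list, 9 rose as deposited, and 8 rose and Dpt fell scaled. Their sums were 371 to 5711, 54.9 to 232 and 67.6 to 104 FPKM in the same order, and 284 to 1532, 115 to 231 and 107 to 163 scaled. Of 9 duct markers 8 were tested, 8 rose as deposited, and 5 rose and 1 fell scaled. Their sums were 964 to 4175, 113 to 245 and 136 to 294 FPKM, and 738 to 1240, 227 to 373 and 213 to 461 scaled. No macrophage, fibroblast or duct marker was at 0 in any pancreas. Of 10 neutrophil markers 5 were tested, 5 rose as deposited and 2 scaled, Cxcr2 and the metalloproteinase Mmp9 already counted above, with sums of 28.4 to 4541, 1.97 to 228 and 1.63 to 367 FPKM; Elane was at 0 in 2 and Mpo in 1 of the p53 KO libraries. The part of these cell types in the metalloproteinase differences was not tested.

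Within the 5 p53 KO pancreases, the members fell into opposite orders as deposited, where a lower acinar share itself raises other genes. The acinar share rose from replicate 5 (0.924%) through replicates 1, 2 and 3 to replicate 4 (38.0%). Mmp3 was lowest in replicate 5 and highest in replicate 4, in the same order as that share at every step, while Mmp11 and Mmp19 ran in the reverse order at every step. Mmp2 ran in that reverse order too, and Mmp14, Mmp7, Mmp10, Mmp12 and Mmp13 were each lowest in replicate 4. Scaled, Mmp11 kept its order but Mmp2 and Mmp19 did not: Mmp2 was 35.4, 36.7, 14.4, 9.27 and 54.5 and Mmp19 1.87, 2.03, 1.94, 1.84 and 2.80 in replicates 1 to 5. Scaled Mmp3 kept its order over 0.461 to 10.5, and Mmp14 ran from 10.01 in replicate 4 to 73.1 in replicate 5. Mmp3 per Mmp14 was therefore 0.0249, 0.0424, 0.251, 1.05 and 0.00630 in replicates 1 to 5, against 0.0761 to 0.240 in i4F and 0.0869 to 0.636 in i4F Ink4a/Arf KO. This ratio lay below every i4F ratio in replicates 1, 2 and 5 and above every i4F ratio in replicates 3 and 4. Other pancreases, with acinar shares of 43.7 to 59.4% and 48.2 to 59.0%, held 0.108 to 1.15 and 0.192 to 0.965 FPKM of Mmp3. The orders were noticed in these 5 libraries and are a description, with no test.

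**Figure D4:**
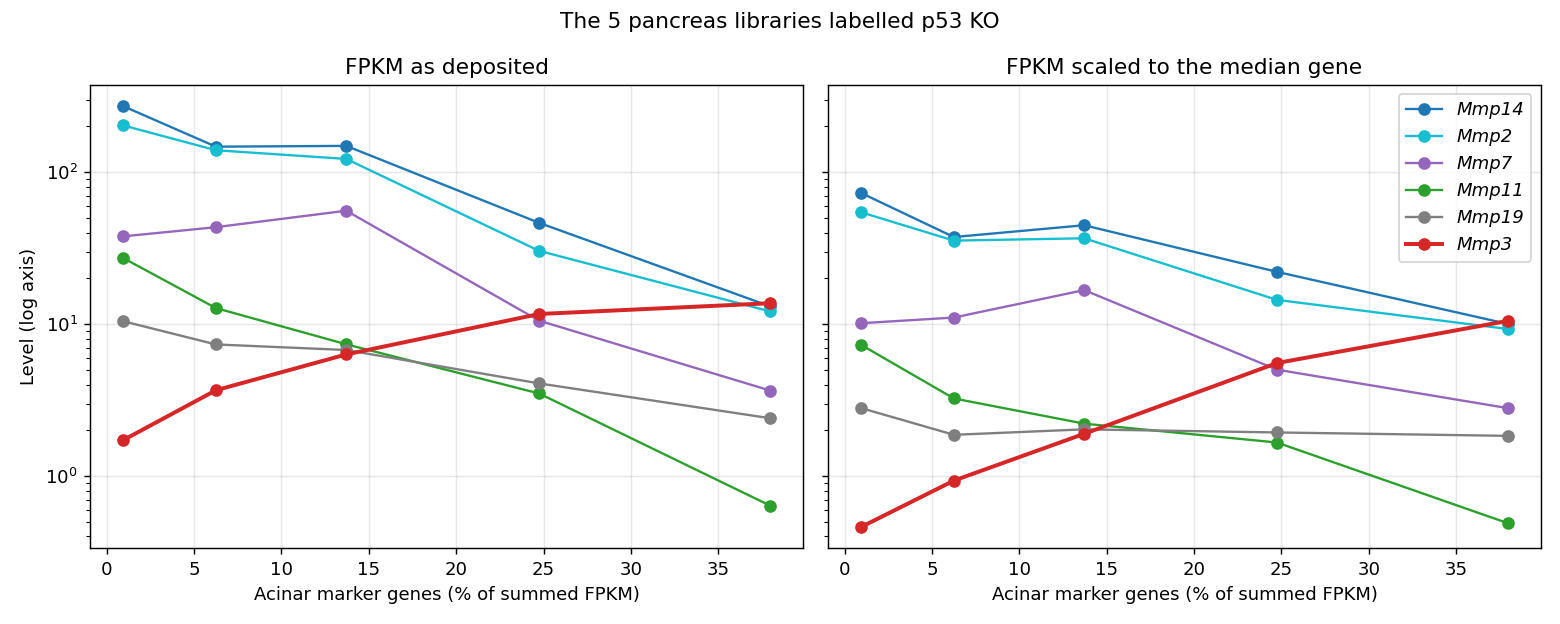
Level of 6 metalloproteinases (log axis) against the share of summed FPKM taken by 14 acinar genes in the 5 pancreas libraries labelled p53 KO, as deposited (left) and scaled to the median gene (right); each point is 1 library. Mmp3 rises from 1.72 to 13.7 FPKM along the axis while Mmp14 falls from 272 to 13.1 FPKM.

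Likeness between genes was then described over the 15 pancreas libraries. By Pearson's r of log2(FPKM + 1), the nearest gene was Bmp1 for Mmp14 (r = 0.998), Lrrc1 for Mmp2 (0.996), Dse for Mmp19 (0.997), Arntl2 for Mmp7 (0.991) and Cela2a for Mmp3 (0.961). After the genotype means were subtracted, the nearest were Pls3 for Mmp14 (0.992), Ankra2 for Mmp2 (0.981), Lipa for Mmp19 (0.992), Arntl2 for Mmp7 (0.971) and Bhlha15, a transcription factor of acinar cells, for Mmp3 (0.950). The acinar enzyme gene Cela2a was listed at 0 in all 10 pancreases not labelled p53 KO, where acinar genes took 43.7 to 59.4% of the summed FPKM. Those 0 values may be failed estimates and not absence. The r of Cela2a is carried by the p53 KO libraries and is not read as a likeness. Among the members, deviations of Mmp2 and Mmp14 had r = 0.977 and those of Mmp3 with Mmp2, Mmp7, Mmp14 and Mmp19 had r of -0.52 to -0.68. Without that subtraction, the levels of Mmp3 had positive r with the same members, 0.64 to 0.70. All these libraries share the shift in composition described above, so high r values across genes are common, and no p is given.

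In the kidney the highest reading of a member was 11.5 FPKM (Mmp14), and no difference of a tested member between genotypes passed the test. Ratios of i4F p53 KO to i4F means were 15.1 for Mmp7, 3.95 for Mmp3, 3.18 for Mmp19 and 0.526 for Mmp13, each with a wide spread among libraries. Mmp14 had the highest mean in each genotype, at 5.93, 5.09, 4.33, 9.25 and 7.48 FPKM in i4F, 11.0, 5.98, 9.33, 4.35 and 6.12 in i4F Ink4a/Arf KO and 11.5, 7.85, 6.18, 10.3 and 4.76 in i4F p53 KO replicates 1 to 5. In i4F and i4F Ink4a/Arf KO, Mmp11 and Mmp2 followed, and in i4F p53 KO the mean of Mmp7 (3.31 ± 4.06, SD, n = 5) lay above theirs. Over i4F, i4F Ink4a/Arf KO and i4F p53 KO, Mmp11 was at 1.62 to 3.60, 1.65 to 4.01 and 1.86 to 3.12 FPKM and Mmp2 was at 1.66 to 2.45, 1.03 to 3.97 and 1.02 to 2.04, and the ranges of Mmp11 and Mmp2 overlapped. The remaining 6 had group means from 0.00414 to 3.31 FPKM, and Mmp10 and Mmp12 stayed under 1 FPKM in all 15 kidneys. The 4 members tested in the kidney were Mmp2, Mmp3, Mmp11 and Mmp14, and none was called in any comparison. The share of all 12431 genes called was 0% for i4F Ink4a/Arf KO against i4F (398 at an unadjusted p under 0.05), 0.257% for i4F p53 KO against i4F (1641) and 0.265% for i4F p53 KO against i4F Ink4a/Arf KO (2232). Scaled, these shares were 0%, 0.499% and 0.539%. Against i4F, in i4F p53 KO, Mmp14 differed by 0.28 (95% interval -0.27 to 0.83), Mmp2 by -0.31 (-0.74 to 0.12), Mmp3 by 0.63 (-0.13 to 1.39) and Mmp11 by -0.15 (-0.59 to 0.28). In i4F Ink4a/Arf KO the same 4 differed from i4F by 0.15 (-0.40 to 0.70), 0.03 (-0.40 to 0.46), 0.34 (-0.42 to 1.10) and -0.0042 (-0.44 to 0.43). No member had a group wholly above or below another in the kidney, against 0.39%, 0.74% and 1.41% of all genes above 0 wholly above, in the order of comparisons just given, and 0.837%, 1.28% and 1.25% wholly below. The genes most like the tested members over the 15 kidneys were Ppp1r18 for Mmp14 (r = 0.984), Pigy for Mmp2 (0.945), Ampd2 for Mmp3 (0.929) and Ifit3 for Mmp11 (0.923), given as a description with no p.

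Mmp7 in the kidney was high in a few libraries. It measured 8.81, 0.274, 0.646, 6.52 and 0.284 FPKM in i4F p53 KO kidneys, 0.254, 0.109, 0, 0.484 and 0.250 in i4F and 0.795, 0.644, 2.13, 0 and 0.117 in i4F Ink4a/Arf KO. Replicates 1 and 4 of i4F p53 KO stood out, followed by i4F Ink4a/Arf KO replicate 3, and the other libraries were under 1 FPKM. The exact permutation test of i4F p53 KO against i4F gave p = 0.0476 for 1 gene, and the fit over all genes without a filter gave 1.25 (SE 0.55, adjusted p = 0.422). The same 3 libraries had the highest levels in the kidney of Lcn2, a gene of injured tubules, at 561, 268 and 199 FPKM. Other injury markers did not rank them so. Spp1 was 3661 FPKM in i4F p53 KO replicate 5, where Mmp7 was 0.284, and 3486 in i4F Ink4a/Arf KO replicate 3. Havcr1 was 27.9 FPKM in i4F Ink4a/Arf KO replicate 2 and 19.9 in i4F p53 KO replicate 4. Replicates 1 and 4 of i4F p53 KO had the lowest sums of tubule markers (2384 and 3041 FPKM against 3412 to 5245 in the other 13). The third library, i4F Ink4a/Arf KO replicate 3, went the other way, with a sum of 5183 FPKM. No tubule injury marker was at 0 in any kidney, the 7 of them summed to 994 to 12905 FPKM in i4F p53 KO, 470.4 to 2161 in i4F and 472 to 4215 in i4F Ink4a/Arf KO, and none of the 6 tested was called between genotypes. Their part in the Mmp7 values was not tested.

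Mmp13 and Mmp2 had their lowest kidney means in i4F p53 KO, but neither was called. Mmp13 measured 0.201, 0.730, 0.773, 0.347 and 0.0858 FPKM in i4F p53 KO kidneys, 0.953, 0.850, 0.742, 0.894 and 0.619 in i4F and 1.43, 0.712, 0.486, 1.02 and 1.12 in i4F Ink4a/Arf KO, and replicates 1, 4 and 5 of i4F p53 KO lay below all 10 other kidneys. Its exact permutation p against i4F was 0.0556 and its difference without a filter -0.37 (SE 0.15, adjusted p = 0.38). Mmp2 measured 1.21, 2.04, 1.33, 1.02 and 1.04 FPKM in i4F p53 KO and 1.79, 1.66, 1.67, 2.45 and 1.78 in i4F, with 1 value, replicate 2, within the i4F range (exact permutation p = 0.0397, adjusted p = 0.53 by limma). Mmp3 measured 1.79, 2.28, 0.114, 1.72 and 0.0727 FPKM in i4F p53 KO kidneys, 0.140, 0.0433, 0.0381, 0.579 and 0.713 in i4F and 0.464, 1.18, 1.86, 0.0592 and 0.116 in i4F Ink4a/Arf KO. The level passed 1 FPKM in 3, 0 and 2 of these libraries. Of them, replicates 2 and 4 of i4F p53 KO had acinar shares of 0.522 and 0.354%. Replicate 1 of i4F p53 KO had 0.0468%, and replicates 2 and 3 of i4F Ink4a/Arf KO had 0.0158 and 0.00777%. Mmp3 was 0.114 FPKM in i4F p53 KO replicate 3 and 0.713 in i4F replicate 5, with acinar shares of 0.454 and 0.455%. The part of acinar transcripts was not tested. Mmp19 measured 0.103 to 1.24 FPKM in i4F p53 KO, 0.0938 to 0.267 in i4F and 0.107 to 0.458 in i4F Ink4a/Arf KO. In the same cluster as Mmp13, the neutrophil gene Mmp8 measured 0.789, 0.635, 0.350, 0.943 and 0.694 FPKM in i4F p53 KO and 0.0141 to 0.149 in i4F, above every i4F value in all 5 . By limma without a filter the difference was 0.65 (SE 0.10, adjusted p = 0.0299), in a fit that called 0.0462% of genes higher. Of 10 neutrophil markers, which include Mmp8, 4 were tested in the kidney, and Retnlg, S100a8 and S100a9 rose, against 0.0885% of all genes; the sum over the list was 59.5 to 170.2 FPKM in i4F p53 KO, 13.8 to 24.2 in i4F and 16.2 to 55.9 in i4F Ink4a/Arf KO. Of the listed inhibitors, activators, inducers, factors, substrates and other proteases none was called in i4F p53 KO kidney; Timp1 measured 59.0, 13.9, 2.06, 12.1 and 3.59 FPKM against 2.00, 0.800, 1.22, 3.43 and 4.96 in i4F (difference 1.81, adjusted p = 0.276).

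Kidneys also differ in how much of the cassette they expressed, with Pou5f1 at 0.650 to 15.7 FPKM in i4F p53 KO and up to 5.40 in i4F and 4.87 in i4F Ink4a/Arf KO, each from 0. Each gene's relation to Pou5f1 within genotypes was fitted as a slope. The slope on log2(FPKM + 1) of Pou5f1 was 0.22 for Mmp14 (95% interval 0.03 to 0.41, adjusted p = 0.134), 0.23 for Mmp3 (adjusted p = 0.275), 0.13 for Mmp11 (adjusted p = 0.281) and -0.06 for Mmp2 (adjusted p = 0.619). None of the 4 was called, against 4.78% of 12430 genes (scaled 1.77%); without i4F Ink4a/Arf KO replicate 1, Mmp14 was called (slope 0.26, adjusted p = 0.0293), in a fit that called 15.2% of its genes. Without the filter Mmp7 had a slope of 0.59 (0.24 to 0.93, adjusted p = 0.0622) and Mmp13 of -0.13 (-0.24 to -0.02, adjusted p = 0.172). In the injury list 4 of 6 tested genes were called on the same slope, Krt20, Clu, Spp1 and Lcn2. In the pancreas the slope was called for 4 of 5 members as deposited (71.3% of all genes) and for 0 of 5 scaled (0% of all genes; 518 at an unadjusted p under 0.05), with Mmp3 at -0.02 and 0.47.

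**Figure D5:**
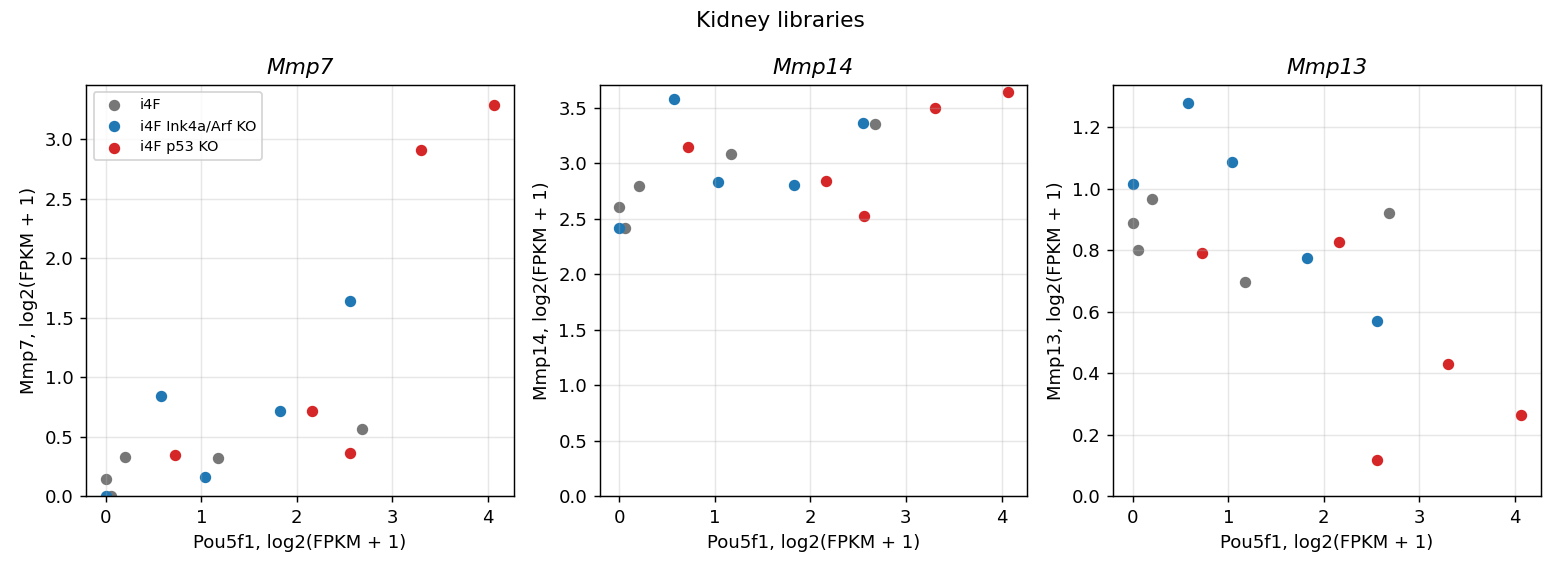
Mmp7, Mmp14 and Mmp13 against Pou5f1 in the 15 kidney libraries, all as log2(FPKM + 1); each point is 1 library and colours are genotypes. The 2 libraries with the highest Pou5f1 (8.86 and 15.7 FPKM) have the highest Mmp7 (6.52 and 8.81 FPKM). The libraries with the lowest Mmp13, replicates 1, 4 and 5 of i4F p53 KO, lie at Pou5f1 of 4.88 FPKM or more. Genotype and Pou5f1 cannot be told apart in them. At Pou5f1 of 5.40 FPKM, i4F replicate 4 has 0.894 FPKM of Mmp13 and 0.484 of Mmp7.

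The difference between the tissues was tested itself, as the p53 KO minus i4F difference in kidney less that in pancreas, over all 30 libraries. For Mmp2 it was -4.28 (SE 0.65, adjusted p = 2.10e-06), scaled -2.44 (SE 0.44, adjusted p = 8.42e-05), and for Mmp14 -4.13 (SE 0.68, adjusted p = 6.20e-06), scaled -2.33 (SE 0.45, adjusted p = 0.000191). All 7 members tested were called lower in kidney as deposited, against 84.2% of 13282 genes, and 5 scaled, against 22.3%. Mmp13 and Mmp19 entered this fit only through the p53 KO pancreases, the group where they are high. Mmp13 reached 1 FPKM in 3 kidneys and 2 pancreases, both p53 KO. Mmp19 reached it in 1 kidney and 6 pancreases, 5 of them p53 KO. Their calls support nothing by themselves. Scaled, Mmp11 stood at -1.23 (adjusted p = 0.0106), Mmp13 at -0.91 (0.0148) and Mmp19 at -0.61 (0.0245). The 2 that did not pass scaled were Mmp7 (-1.27, 95% interval -2.76 to 0.23, adjusted p = 0.167) and Mmp3 (-0.49, -1.68 to 0.71, adjusted p = 0.529). In i4F alone the tissues are set side by side without a test, since their tables were deposited separately: Mmp14 measured 6.42 ± 1.97 FPKM in kidney and 3.26 ± 2.04 in pancreas (SD, n = 5), Mmp2 1.87 ± 0.328 and 3.58 ± 1.64, Mmp11 2.66 ± 0.853 and 0.443 ± 0.195, and Mmp13 0.812 ± 0.132 and 0.0282 ± 0.0228. Acinar genes took 43.7 to 59.4% of the summed FPKM in these pancreases and 0.0434 to 0.455% in these kidneys. Such a share lowers the other readings of the pancreas. The values are not corrected for it, so no tissue difference is read from them. Kidneys and pancreases entered as independent libraries, although some may come from the same mice.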

How the data were processed

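Per the labels' protocols, poly(A) stranded RNA-seq libraries from 30 mouse tissue samples were sequenced, and the authors deposited 1 table of FPKM values per tissue. The submitters' processing notes name TopHat2 2.0.10, Bowtie 1.0.0, SAMtools 0.1.19, Cufflinks 2.2.1, FastQC and the build mm10, without roles. No counts are given. Low values were set against the lowest value above 0 of the same gene. Of these ratios, 44.8% of 3508 in kidney and 24.7% of 5371 in pancreas lay within 0.1 of a whole number. Part of the low values, above all in kidney, thus ran near whole multiples. The lowest readings may rest on few fragments, which was not tested. The depth behind a value is unknown, so no counting interval is given. Genes at 1 FPKM or more in at least 5 libraries were tested with limma 3.58.1 in R 4.3.3 on log2(FPKM + 1), 15 libraries of a tissue together (30 for the tissue difference), two-sided, with Benjamini-Hochberg adjustment over all genes tested and a threshold of 0.05. Fold changes on this scale understate changes of low genes. Scaled values were divided by median-of-ratios size factors. For single genes, group means of log2(FPKM + 1) were also compared by exact permutation of the libraries. The script was tested on simulated data. Members always appear by name. Of the other lists, genes with the smallest p (up to 3 a list) and textbook partners (Timp1 to Timp4, Plau, Plaur, Mmp8, Mmp9) do, with the most correlated genes; 1 listed gene is not reported here. Members and lists were chosen with earlier results of these data known. Alternatives were another pseudocount, filter, scaling, samples, a replicate block, an Xist covariate and leaving out each library.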

Additional observations from a re-analysis of the deposited data

Results flagged for a closer look

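Among 54 groups of 5 libraries, 9 genes in 6 groups, 5 held a highest library whose gap to the next exceeded 0.71 of the range on the log2(FPKM + 1) scale; chance gives about 1 in 20 groups. Mmp2 in kidney i4F replicate 4 was 2.45 FPKM against 1.66 to 1.79 in the others (0.823 of the range on that log2 scale). Mmp7 in pancreas i4F replicate 5 was 2.61 FPKM against 0 to 0.350 (0.767 of the log2 range), and in pancreas i4F Ink4a/Arf KO replicate 1 it was 1.79 FPKM against 0 to 0.338 (0.716 of the log2 range). Mmp10 was above 0 in 1 library each of kidney i4F (replicate 1, 0.0207 FPKM) and pancreas i4F (replicate 5, 0.0289 FPKM), so the gap was the whole range (1). On FPKM itself 7 groups passed, these 5 with Mmp11 in kidney i4F p53 KO (3.12 FPKM, next 2.19, gap 0.740) and Mmp13 in p53 KO pancreas (9.12 FPKM, next 1.74, gap 0.814).

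The p53 KO against i4F difference was lower in kidney than in pancreas, by limma's test of that difference, for all 7 members tested: -4.28 for Mmp2, -4.13 for Mmp14, -2.67 for Mmp7, -2.55 for Mmp11, -1.83 for Mmp19, -1.59 for Mmp3 and -1.56 for Mmp13 in log2(FPKM + 1). The median over the 13282 genes tested was -1.39 as deposited and -0.05 scaled. Of the members, Mmp13 and Mmp19 passed the filter of this fit only with the p53 KO pancreases, where they are high.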

How the results depend on the processing

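Over 52 results and 1187 alternative values, 1140 kept their side of the threshold, 31 no longer passed it, 1 passed it, 2 called values reversed and 13 counts moved. Of the 1140, 23 values in 8 results changed sign without being called either way. In the pancreas, the 5 members called between p53 KO and i4F, and between p53 KO and i4F Ink4a/Arf KO, became 9 without a filter on low values (75.3% and 76.6% of all genes called) and 2 with a filter of 5 FPKM (93.2% and 93.3%), since 9 and 2 members were then tested. The 7 called in the tissue difference became 3 with that filter and ranged from 6 to 7 when 1 library was left out. The kidney slope on Pou5f1 gave 0 to 1 called members with 1 library left out, 1 without i4F Ink4a/Arf KO replicate 1. The pancreas slope, with 4 called, gave 0 with a pseudocount of 0.1, 2 with the filter of 5 FPKM, 0 scaled, 0 with an Xist covariate and 0 to 4 with 1 library left out: 0 without p53 KO replicate 1, 2 without replicate 2 and 0 without replicate 4. Scaled, that slope reversed for Mmp2 (-0.052) and Mmp14 (-0.026). The cause was not tested. Mmp3 lost its call between p53 KO and i4F Ink4a/Arf KO when scaled (0.84, adjusted p = 0.0996). Replicate numbers were not taken to pair samples, since deviations of same-numbered libraries correlated over 0.1 in at most 3 of 5 pairs. That was in kidney i4F p53 KO and i4F (r from -0.08 to 0.29), where 3 of 5 also correlated best with their own number. With the replicate block, 0 members were called between kidney groups and 5 between p53 KO and i4F pancreas, as without it.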
